A study of Mus musculus with 2 samples.

Results

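The uninjected cones with little RNA were 20 of the 85 cells deposited for uninjected *Pde6c*.GFP retinae, chosen by their measured total: the counts of a cell were summed over all 17774 genes, and cells under 3000 counts are called low-count cones here. The other 65 uninjected cells, at or over 3000 counts, are called high-count cones. The whole series held 151 cells, of which 66 came from GSK-J4-treated retinae. The mice were C57BL/6 by the labels and carried the *Pde6ccpfl1* mutation (line B6.CXB1-Pde6ccpfl1/J in the methods), crossed with the *Chrnb4*.eGFP line in which the *Chrnb4* promoter drives eGFP, so that GFP marks the cones. All uninjected cells were collected from the retina at PN24, the age at which the study places the peak of cone death, and received no injection. The GSK-J4-treated cells came from mice of the same line and age by the labels, injected once into the vitreous at PN14 with the histone demethylase inhibitor GSK-J4 at 10 µM and collected 10 days later, although their cell names hold the word adult. Each condition had 1 library on 1 plate with 1 sorted cell per well, so no difference here has a replicate check, and cells are not replicates. A total per cell was the only measure of RNA content, and the RNA a cell held cannot be told apart from the RNA captured and sequenced from it.

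Cones detect light through an opsin, which activates the cone transducin. Transducin in turn activates the cone phosphodiesterase, whose catalytic subunit is encoded by *Pde6c*, and the fall in cGMP closes the cyclic nucleotide-gated channel. In *Pde6ccpfl1* mice this cascade stops at the phosphodiesterase, and the cones degenerate. Photoreceptors also carry many mitochondria and use much glucose, so energy metabolism genes are among the groups usually followed in degenerating cones.

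The low-count cones held 33254 counts in all, or 2.93% of the 1134089 counts of the library, while making up 23.5% of its cells (Clopper-Pearson 95% interval 15 to 34.0%, which covers counting error only). Their totals ran from 861 to 2970 with a median of 1412, and those of the high-count cones from 3014 to 98441 with a median of 9942. No gap marked the limit, since the 4 cells just under it had 2672, 2808, 2918 and 2970 counts and the 4 just over it 3014, 3082, 3262 and 3321. A wider step lay further down, between 1985 and 2672 counts, as the plot of ordered totals shows. In the GSK-J4-treated library 41 of 66 cells lay under 3000.

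**Figure D1:**
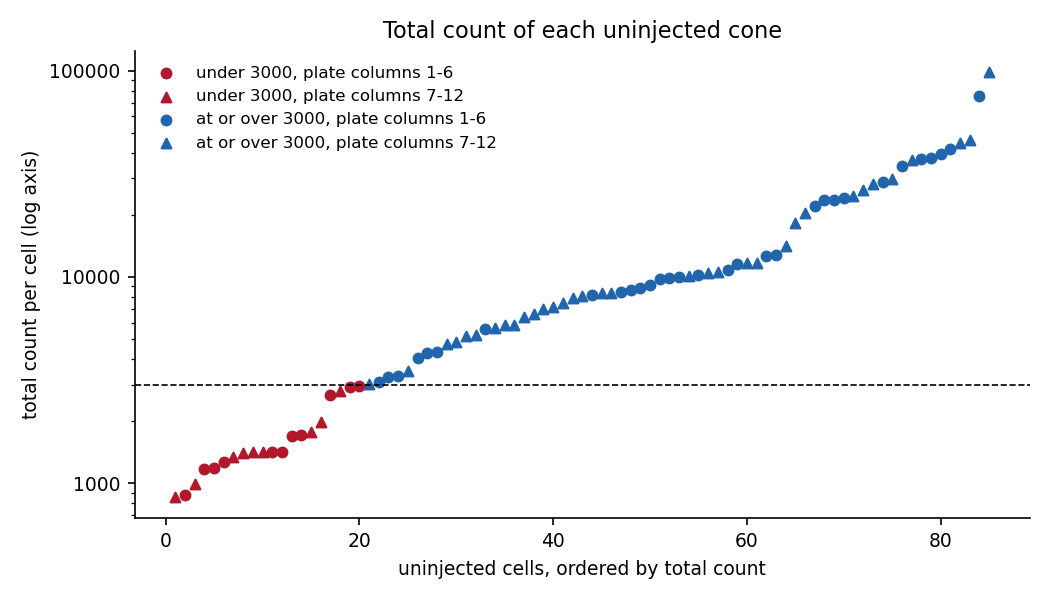
Total count (log axis) of each of the 85 uninjected cells, ordered from lowest to highest; red cells lie under the dashed limit of 3000 and blue cells at or over it, circles lie in plate columns 1 to 6 and triangles in columns 7 to 12. The 20 low-count cones run from 861 to 2970 with no gap at the limit, and both sides of the plate hold low- and high-count cones.

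The low-count cones were spread over the plate. Plate columns 1 to 6 held 11 of them among 42 cells (26.2%, 13.9 to 42.0%), and columns 7 to 12 held 9 among 43 (20.9%, 10.0 to 36.0%), so the intervals of both sides overlapped widely. Every plate row held at least 1. Row G had the most with 5 of 12 cells and row H the fewest with 1 of 12. Plate column 11 had 4 of 8, and columns 3 and 7 had 0 among 8 and 7 cells.

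Genes found per cell followed the total. The low-count cones had a median of 584 genes (346 to 1198) and the high-count cones of 2052 (725 to 8913). At equal depth the difference was small. With every cell brought to 861 counts, the total of the smallest cell, the expected number of genes had a mean of 413 in low-count and 431 in high-count cones, a ratio of 0.959. The medians were 421 (264 to 518) and 444 (215 to 555), and the ranges overlapped almost entirely. The 10 leading genes of a cell took a mean of 24.8% of its counts in low-count and 24.4% in high-count cones, at unmatched depth. The medians were 24.04% (15.9 to 47.3%) and 20.4% (11.6 to 72.5%), so the typical low-count cone gave them a larger share, while the high-count mean included single cells of up to 72.5%. Counts mapped to protein-coding genes were 92.9% and 90.9% of the total.

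**Figure D2:**
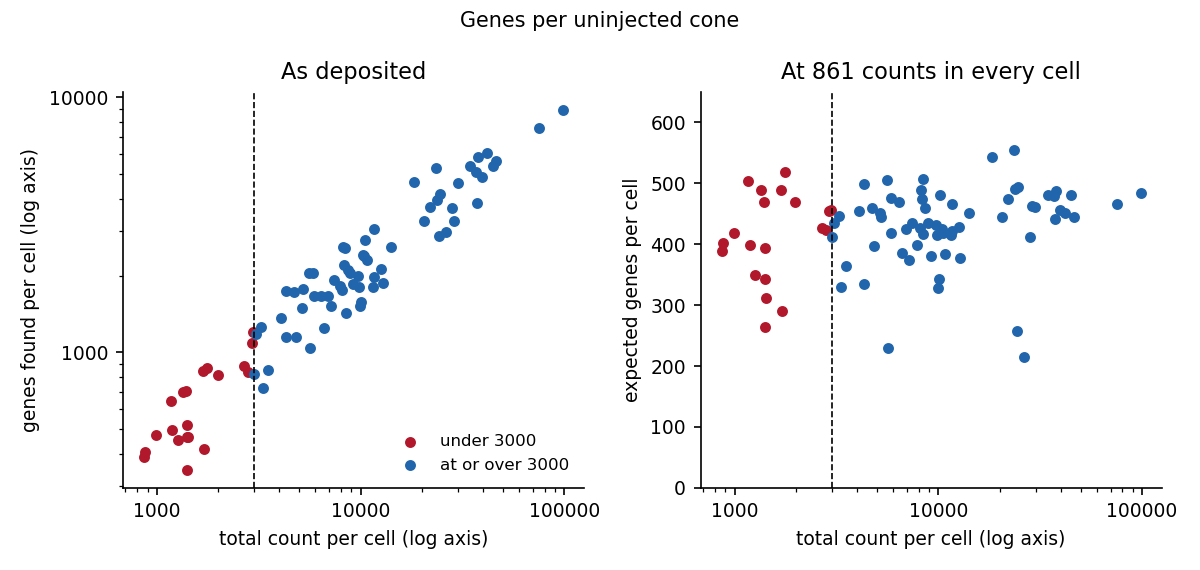
Genes found in each uninjected cell against its total count (log axis), as deposited (left, log axis) and the number computed for every cell brought to 861 counts (right); red marks cells under the dashed limit of 3000 and blue those at or over it. On the left genes follow counts, and on the right the low-count cones, at 264 to 518, lie within the range of the high-count cones, at 215 to 555.

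The low-count cones carried cone markers. All 20 had counts of at least 5 of 11 cone markers, with a median of 8, and the list took a mean of 2.37% of a cell's counts (0.684 to 6.66%), against 2.62% (0.357 to 9.80%) in high-count cones. Asking for at least 2 counts of a marker in a cell left a median of 4 markers in low-count cones (1 to 8) and of 6 in high-count cones (3 to 10), and 14 of the 20 low-count cones then kept 3 or more. The lowest share lay in the cell of well G06, the second smallest, where 5 markers were found. The cone label therefore matched the markers in the 14 low-count cones that kept 3 or more, and rested on fewer markers in the rest. *Opn1mw*, *Pde6h* and *Gnb3* on the list are among the genes described below with exactly 1 count in many cells. *Opn1mw* and *Pde6h* had a count in every uninjected cell, so finding them does not mark a single cell as a cone.

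Among the cone genes, *Guca1a*, *Opn1sw* and *Gngt2* gave most of the list's counts. *Guca1a*, which activates guanylate cyclase when calcium falls, had a mean of 61.8 counts per 10000 in low-count cones (median 36.9, 0 to 291) and 44.0 in high-count cones (median 31.7, highest 154). *Opn1sw*, the short-wavelength opsin, had means of 55.5 (median 41.5, highest 184) and 57.7 (median 26.0, highest 287). *Gngt2*, the cone transducin gamma subunit, had 51.3 (median 31.6, highest 198) and 65.6 (median 48.5, highest 351). The ranges of all 3 genes overlapped between the groups, and none differed by 2-fold. Of the rarer members, *Cnga3*, a subunit of the cone channel, had a count in 1 of 20 low-count cones and 12 of 65 high-count cones, and *Pde6c* itself in 1 and 16. These counts are at unmatched depth. At 861 counts *Cnga3* would be found in 2.5% of low-count and 3.1% of high-count cones, and *Pde6c* in 2.2% and 3.8%. *Cngb3*, the other channel subunit, had 0 counts in low-count cones and 104 in high-count cones. Expected at 861 counts, *Cngb3* would be found in 6.49% of high-count cones, so a difference was not detectable at this depth. *Calu* overlaps *Opn1sw* and *Abi3* overlaps *Gngt2* on the opposite strand, and since counting was not stated to use strand, reads from these pairs cannot be told apart.

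Several abundant genes had exactly 1 count in many cells over a wide range of totals. *Opn1mw*, the medium-wavelength opsin, was found in all 85 uninjected cells, with exactly 1 count in 17 of 20 low-count and 38 of 65 high-count cones, the largest of which had 98441 counts. *Pde6h*, the inhibitory subunit of the cone phosphodiesterase, had exactly 1 count in 14 low-count and 36 high-count cones and was absent from none. *mt-Cytb*, the mitochondrial cytochrome b, had 1 count in 16 and 36, and *Gapdh*, a glycolytic enzyme, in 15 and 22. By a rule set after these values were seen (a count in at least 80% of low-count cones and exactly 1 count in at least 25% of high-count cones), 17 genes were taken, among them *Gnb3*, *Malat1*, *mt-Nd2* and *mt-Co3*. *Sag* and *mt-Co1* also met it, although only 6 and 7 low-count cones held exactly 1 count of them and 11 held more. A count of 1 was worth 3.37 to 11.6 per 10000 in a low-count cone and as little as 0.102 in the largest high-count cone, so dividing by the total raised these genes in small cells. Of the 17, 14 had a higher mean in low-count cones, and 7 did after 1 count was taken from each. The origin of the steady counts was not tested. *Gngt2* and *Opn1sw* were not among them and followed the total.

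**Figure D3:**
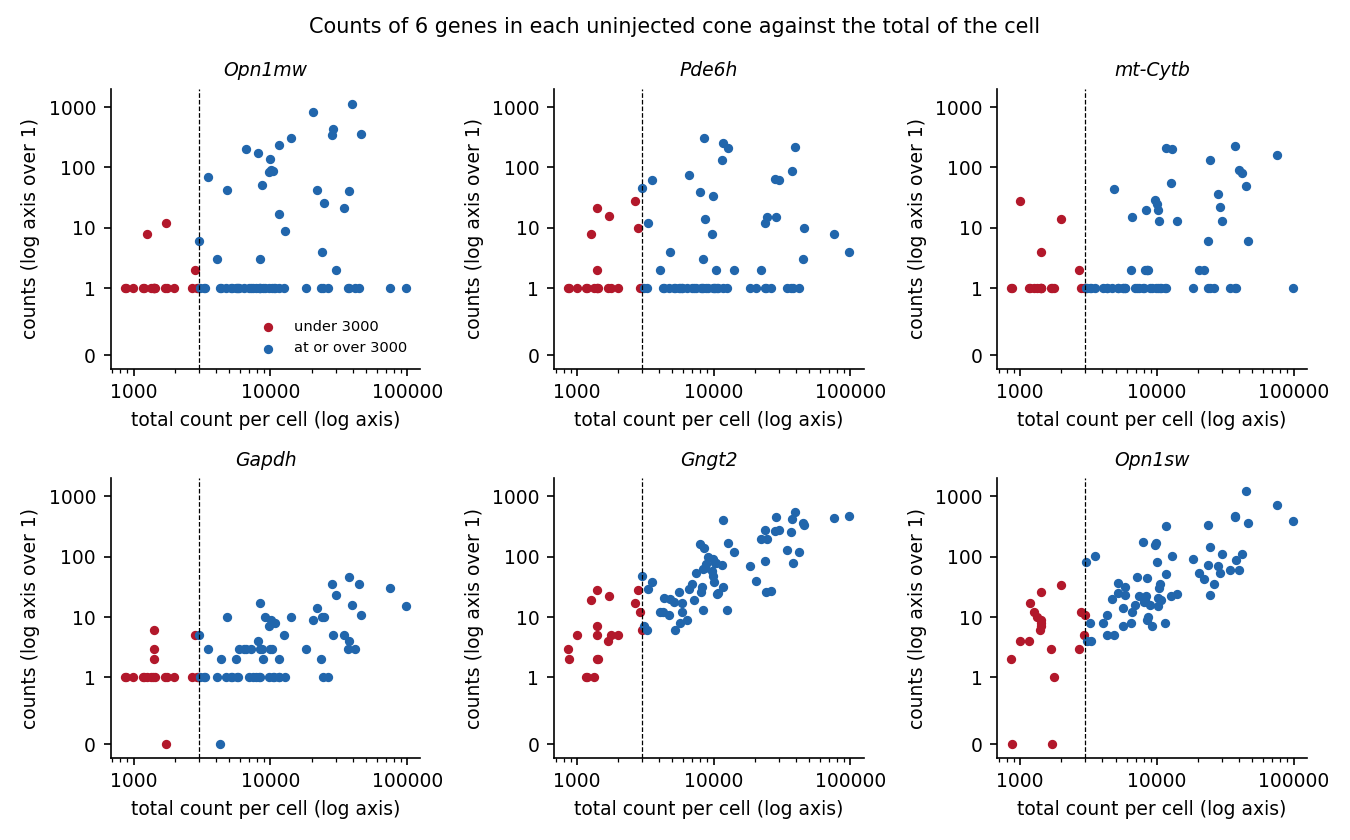
Counts of 6 genes in each of the 85 uninjected cells (vertical axis, linear to 1 and log above) against the total count of the cell (log axis); red marks cells under the dashed limit of 3000 and blue those at or over it. Many cells lie on a line of exactly 1 count, up to a total of 98441 for *Opn1mw* and *mt-Cytb* and of 41742 for *Pde6h*, with separate cells of many counts, while *Gngt2* and *Opn1sw* rise with the total.

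For *Opn1mw* the measures went apart. Its mean was 13.04 per 10000 in low-count and 44.4 in high-count cones (log2 difference -1.69, on the scale of the mean plus a pseudocount of 1 per 10000 used throughout). Its median, however, was 7.11 (3.37 to 70.1) against 1.92 (0.102 to 412), and at 861 counts it would be found in 64.3% of low-count and 39.4% of high-count cones. More than 1 count was held by 3 of 20 low-count cones (15%) and 27 of 65 high-count cones (41.5%). The highest low-count cone had 12 *Opn1mw* counts and the highest high-count cone 1130. Thus cells with many *Opn1mw* counts were seen on both sides of the limit, and the share of cells with any count does not describe them. *Opn1mw* lies on chromosome X from 74127464 to 74150760 (GRCm38, GENCODE M21 annotation, plus strand).

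Rod transcripts took a larger share of the low-count cones, by an amount that rested largely on 1 cell. The 11 rod markers had a mean of 0.868% of counts in low-count and 0.340% in high-count cones, a ratio of 2.55, and medians of 0.400% (0.116 to 7.44%) and 0.254% (0.0342 to 1.15%). The cell of well D05 held the 7.44%, and without it the low-count mean was 0.522%, 1.54 times that of the high-count cones. *Pde6g*, the inhibitory subunit of the rod phosphodiesterase, had 88 of the 1263 counts of this cell. Its mean was 50.1 per 10000 in low-count cones (median 10.8, 0 to 697) and 10.4 in high-count cones (median 3.60, highest 102), a log2 difference of 2.17, which was 0.78 without the highest cell of each group. *Sag*, the rod arrestin, stood at 17.8 (median 11.4, highest 70.9) against 6.05 (median 2.85, highest 30.2). Its log2 difference of 1.42 was 1.27 without the highest cells and 1.15 with 1 count taken from every cell. The rod factors *Nrl* and *Nr2e3* had 0 counts in low-count cones. High-count cones held only 11 and 10 of them among 1100835 counts, so these 0 counts do not separate the groups. The D05 cell also carried 4.59% cone markers, from 7 of the 11. No doublet caller was run, and whether any well held more than 1 cell or free RNA was not tested.

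Markers of other retinal cells were scarce in most low-count cones. Müller glia markers took a mean of 0.117% in low-count and 0.163% in high-count cones, but 0.135% and 0.111% of summed counts, mostly through *Apoe* and *Clu*. Single cells carried much of this: the low-count cell of well A02 had 1.11% and the high-count cell of well H04 3.91%, and without the highest cell of each group the means were 0.0646% and 0.104%. *Glul*, *Rlbp1*, *Vim*, *Dkk3*, *Aqp4* and *Kcnj10* had 0 counts in low-count cones. In high-count cones these genes had, in that order, 42, 70, 33, 75, 2 and 0 of 1100835 counts. At the depth of the low-count cones, none of these genes alone separates the groups. Bipolar markers had 9 counts over the 20 cells, amacrine 8, horizontal 3, ganglion 2 and endothelial 1. Of summed counts, bipolar markers took 0.0271% in low-count and 0.00881% in high-count cones, and amacrine markers 0.0241% and 0.00527%. The horizontal, ganglion and endothelial shares were lower in low-count cones. The cell of well B10 had 0.397% amacrine markers. Mean shares without the highest cell of each group were 0.00795% and 0.00873% for bipolar and 0.00197% and 0.00407% for amacrine markers. Microglia, retinal pigment epithelium and erythrocyte markers had 0 among 33254 counts, which allows a share of up to 0.00902% (a floor of 3 counts, for counting error only). Only 4 of 9, 4 of 7 and 1 of 4 of these markers were among the genes counted. Their summed shares in high-count cones, 0.000727%, 0.00291% and 0.000273%, lay under this bound, so the 0 counts do not separate the groups.

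Gene by gene, 772 genes had a mean of at least 2 counts per 10000 over both groups. Of these, 178 (23.1%) were at least 2-fold higher in low-count cones and 99 (12.8%) at least 2-fold lower, so that 64.3% of the genes beyond 2-fold were higher. The median log2 difference was 0.12. Counts summed over the cells of a group gave 205 higher and 80 lower (71.9% higher) with a median of 0.23. Scaling these sums by median-ratio size factors, which shifted the log2 ratio of low over high by -0.68, turned the split over, with 98 genes higher and 220 lower (30.8% higher) and a median of -0.49. All differences are given relative to the total count. The genes called higher rested on few cells. They had counts in a median of 4 of the 20 low-count cones, and in 138 of the 178 a single cell held at least 50% of the low-count group's counts. Without the highest cell of each group, 56 of the 178 stayed at least 2-fold higher and 44 had the opposite sign, while of the 99 lower genes 64 stayed at least 2-fold lower and 2 had the opposite sign. Within each side of the plate taken alone, 51 of the 178 and 36 of the 99 were beyond 2-fold in the same direction on both sides. The means were taken over 20 and 65 cells, and the part of this unequal number in the count of higher genes was not tested. Among the marker lists, 0 of 8 cone genes tested were higher and 1 (*Opn1mw*) lower, with a median log2 difference of 0.04 beside 0.12 for all tested genes. Of 4 rod genes tested 2 (*Pde6g* and *Sag*) were higher and 0 lower, with a median of 0.80.

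**Figure D4:**
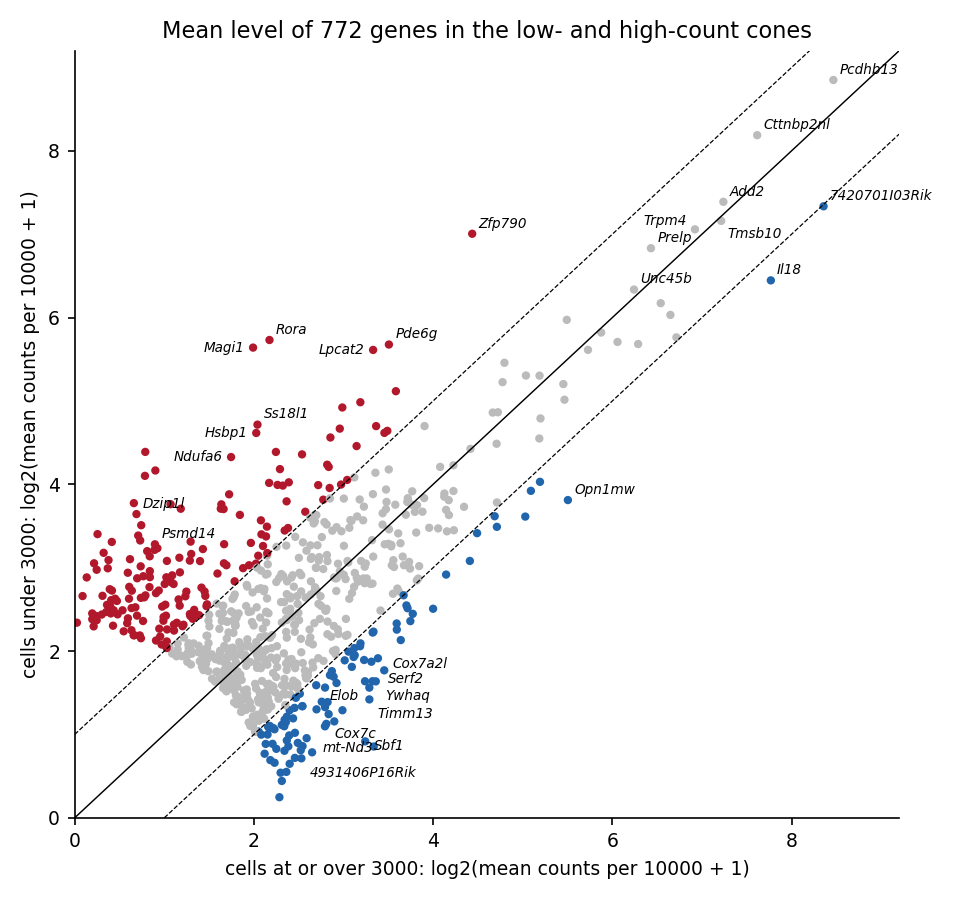
Mean level of the 772 tested genes, as log2 of the mean counts per 10000 plus 1, in high-count (horizontal) and low-count cones (vertical); the solid line marks equal means and the dashed lines 2-fold differences, with the 178 higher genes in red and the 99 lower genes in blue. Most red genes lie at low means in high-count cones. Among the most abundant genes, *Pcdhb13* and *Cttnbp2nl* lie between the dashed lines, while 7420701I03Rik and *Il18* lie below the lower dashed line.

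The highest differences, among genes that at 861 counts would be found in 20% or more of the cells of a group, were those of *Magi1* and *Rora*. *Magi1*, a scaffold protein of cell junctions, had a mean of 48.9 per 10000 in low-count and 2.97 in high-count cones, a log2 difference of 3.65. Only 7 low-count cones had a *Magi1* count, the highest at 522 per 10000, above the 11.6 of the highest high-count cone. Its median was 0 in low-count and 2.68 in high-count cones, and at 861 counts it would be found in 23.6% and 22.02% of cells, so the higher mean rested on a few cells. *Rora*, a nuclear receptor that also takes part in cone opsin expression, had 52.1 against 3.51 (log2 3.56), with counts in 6 low-count cones and a highest cell at 569 against 10.7. Its median was also lower, at 0 against 3.78, and it would be found in 18.3% and 24.8% of cells at 861 counts. These differences remained at 2.70 and 2.56 without the highest cells, and both were at least 3.19 on each side of the plate. Both genes are long, *Magi1* running on chromosome 6 from 93675455 to 94283917 (minus strand) and *Rora* on chromosome 9 from 68653786 to 69388246 (plus strand), and each overlaps smaller annotated genes on the other strand. *Dzip1l* (log2 2.95), *Ss18l1* (2.68), *Lpcat2* (2.28) and *Psmd14*, a proteasome subunit (2.39), also kept differences of at least 1.59 without the highest cells, from counts in 6 to 12 low-count cones. All of these genes were picked by their differences in the same data, so the values that remained are not independent evidence.

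The other leading genes came down to 1 cell each. *Zfp790*, a zinc finger gene, made up 24.1% of the counts of the cell in well F02 (342 of 1422). Its mean of 127 per 10000 against 20.6 (log2 2.57) became 7.57 against 4.22 without the highest cells (log2 0.71). On the 2 sides of the plate it was 5.58 and -1.62. *Hsbp1*, which binds the heat shock factor, had 52 of its 70 low-count counts in well A08, and its log2 difference of 2.59 became 0.80. *Ndufa6*, a subunit of mitochondrial complex I, had 40 of 50 in well D05, and 2.58 became 0.62. Among low-count cones, the cell of well D05 had the highest share of the rod and endoplasmic reticulum stress lists. That of A08 led the cone, shared photoreceptor, mitochondrial ribosomal and antioxidant lists, and had the fewest genes of any low-count cone (346). That of A02 led the Müller, nuclear oxidative phosphorylation, glycolysis, cytoskeleton and chaperone lists.

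The genes lowest in low-count cones, apart from *Opn1mw*, were found in few of these cells and in most high-count cones. *Sbf1*, a myotubularin-related phosphatase family member, had 0.889 per 10000 in low-count and 8.46 in high-count cones (log2 -2.33), from 4 counts in 3 cells and 580 counts in 58 cells. *mt-Nd3*, a mitochondrially encoded complex I subunit, had 0.724 against 5.27 (log2 -1.86), from 3 counts in 3 cells and 652 in 48. *Timm13*, a chaperone of mitochondrial protein import, had 1.68 against 8.77 (log2 -1.87), from 9 counts in 2 cells and 834 in 58. The exact 95% Poisson interval of the 3 *mt-Nd3* counts was 0.619 to 8.77. At 861 counts these genes would be found in 7.22%, 6.23% and 6.90% of low-count cones and in 22.8%, 23.5% and 31.4% of high-count cones, and since they passed the 20% filter through the high-count cones alone, the lower detection follows from their selection. *Serf2* (log2 -1.72), *Ywhaq*, a 14-3-3 protein (-1.69), *Elob*, a subunit of elongin (-1.60), and 4931406P16Rik (-1.82) were also among the lowest. Their log2 differences without the highest cells lay between -1.74 and -1.99. These genes were picked by their differences in the same data, so these values are not independent evidence. At 861 counts 4931406P16Rik would be found in 5.07% of low-count and 25.4% of high-count cones, so it too passed the filter through the high-count cones alone. *Timm13*, *Elob*, *Serf2* and 4931406P16Rik overlap other annotated genes, and counting was not stated to use strand, so their values are uncertain.

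The leading genes of the low-count cones were those of the whole library. *Pcdhb13*, a protocadherin, was the most abundant gene in 13 of the 20 low-count and 16 of the 65 high-count cones, with means of 460 and 353 per 10000. Next came *Cttnbp2nl* (291 and 195), *Add2* (167 and 150), the long noncoding RNA 7420701I03Rik (160 and 327), *Tmsb10*, an actin monomer-binding thymosin (142 and 147), *Trpm4*, a calcium-activated cation channel (132 and 120), and *Prelp* (113 and 85.3). *Il18*, an interleukin, was at least 2-fold lower in the mean, at 86.2 and 217, but had medians of 84.5 and 73.5. It made up 59.6% of the high-count cell in well D10 and 33.8% of that in D04, and without the highest cell of each group the means were 82.2 and 127. 7420701I03Rik was also at least 2-fold lower in the mean (log2 -1.02), but its medians were 165 and 172. It made up 54.1% of the high-count cell in well E09 and 47.8% of that in E03, and its means without the highest cells were 155 and 247. Of the 20 genes found in every uninjected cell, 9 were also found in every GSK-J4-treated cell, *Pcdhb13*, *Cttnbp2nl*, *Prelp*, *Trpm4*, *Il18* and *Unc45b* among them. These 9 genes took a median of 13.4% of the counts of low-count cones (5.84 to 22.6%), 11.5% of high-count cones and 17.98% of GSK-J4-treated cells under 3000 counts.

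Energy metabolism genes showed no common direction. The mitochondrially encoded genes took a mean of 1.79% of counts in low-count cones (median 1.17%, 0.404 to 6.86%) and 1.36% in high-count cones (median 0.881%, 0.106 to 8.55%). The cell of well E06 alone passed the 5% limit of the methods among low-count cones, as did 2 high-count cones. Of 12 mitochondrial genes tested, 2 were higher, 2 lower and 8 neither, near the 23.1% and 12.8% of all tested genes, and their median log2 difference of 0.48 stood beside 0.12 for all tested genes. *mt-Co1*, a cytochrome c oxidase subunit, was the highest at 33.7 against 10.99 (log2 1.53, and 1.40 with 1 count taken from every cell). *mt-Nd2*, a complex I subunit, was lower in the mean at 7.46 against 20.3 (log2 -1.33) and higher in the median at 7.13 against 2.12, with exactly 1 count in 14 of 20 low-count cones. Without the genes of steady single counts the mitochondrial ratio was 1.16 in place of 1.31. Under median-ratio size factors it was 0.895.

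Nuclear genes of oxidative phosphorylation took 4.03% (median 2.60%, 1.81 to 11.97%) and 3.81% (median 3.75%, 0.547 to 8.69%), so the mean was higher and the median lower in low-count cones. Of 51 genes tested, 4 were higher (*Ndufa6*, *Ndufa12*, *Atp5h* and *Uqcr10*), 6 lower (*Cox7a2l*, *Cox7c*, *Ndufb4*, *Ndufa13*, *Atp5a1* and *Atp5b*) and 41 neither, with a median log2 difference of 0.01. Both shares lay under the 23.1% and 12.8% of all tested genes. *Uqcr10*, a complex III subunit, had 24.96 against 9.29 per 10000 (log2 1.33, and 1.10 without the highest cells), and *Cox7c*, a complex IV subunit, 1.18 against 6.00 (log2 -1.68, and -1.93). Of 9 glycolysis genes, *Gapdh* (10.1 against 4.21) and *Eno1* (9.90 against 4.08) were higher, and *Tpi1*, triosephosphate isomerase, was lower (2.66 against 8.93, log2 -1.44), again near the shares of all tested genes. The *Gapdh* difference of 1.09 was 0.15 with 1 count taken from every cell. *Aldoa*, the most abundant of the list, had 22.4 against 35.4 (log2 -0.64).

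Cytosolic ribosomal protein genes took 4.48% of low-count and 3.81% of high-count counts, with ranges of 1.05 to 9.92% and 0.737 to 9.14%. Of 60 tested, 7 were higher, 3 lower and 50 neither, with a median log2 difference of 0.32. Both counts were under the 23.1% and 12.8% of all tested genes. The 4 cells in wells G06, E06, A02 and F06, all in plate columns 1 to 6, had over 8% each, and the ratio of 1.18 was 1.38 in plate columns 1 to 6, 0.881 in columns 7 to 12 and 0.816 under median-ratio size factors. *Rpl39* (14.9 against 5.58, log2 1.27) and *Rpl23* (8.58 against 3.29, log2 1.16) had positive differences on both sides of the plate, *Rps15* and *Rpl10a* in columns 1 to 6 alone, and *Rpl5* was lower (1.46 against 5.49, log2 -1.40). Mitochondrial ribosomal protein genes took 1.01% and 0.874% (medians 0.693% and 0.763%). The cell of well A08 had 5.88%, and without the highest cell of each group the means were 0.752% and 0.850%. Of 17 tested, 6 were higher and 1 lower, beside 23.1% and 12.8% of all tested genes, and of the 6 only *Mrpl55* stayed 2-fold higher without the highest cells, at log2 1.30 from counts in 2 low-count cones.

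The stress and structure lists held few genes abundant enough to compare. No list of these had more than 1 gene beyond 2-fold in either direction. *Parp1*, a DNA repair enzyme, was the single gene tested on the apoptosis list and was lower at 4.69 against 14.99 (log2 -1.49). At unmatched depth it had a count in 7 of 20 low-count and 62 of 65 high-count cones. That list took 0.0888% and 0.192% (medians 0.0755% and 0.0902%), and 0.0754% and 0.128% without the highest cell of each group. The high-count cell of well D03 had 4.25%. *Atf4* was the single endoplasmic reticulum stress gene tested, at 2.03 against 3.43 (log2 -0.55), and that list took 0.0761% and 0.0889%. Among chaperones (0.254% and 0.206%) *Cct7* was higher from counts in 3 low-count cones, and among antioxidant genes (0.258% and 0.198%) *Prdx2*, a peroxiredoxin, was higher at 14.8 against 4.002 (log2 1.66). Without the highest cell of each group the antioxidant shares were 0.186% and 0.185%. Immediate early genes took 0.0354% and 0.0473%, with none abundant enough to compare. Cytoskeleton genes took 1.60% and 1.63% with 0 of 3 beyond 2-fold, nuclear long noncoding RNAs 0.171% and 0.121%, and ribbon synapse genes 0.134% and 0.187%. The nuclear long noncoding RNA shares were 0.114% and 0.107% without the highest cell of each group. Photoreceptor genes shared by rods and cones took 0.471% and 0.441%, and 0.395% and 0.418% without the highest cell of each group. *Prph2*, a disc rim protein, was the 1 of 7 that was higher, at log2 1.49, and without the highest cells its difference was -0.003.

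**Figure D5:**
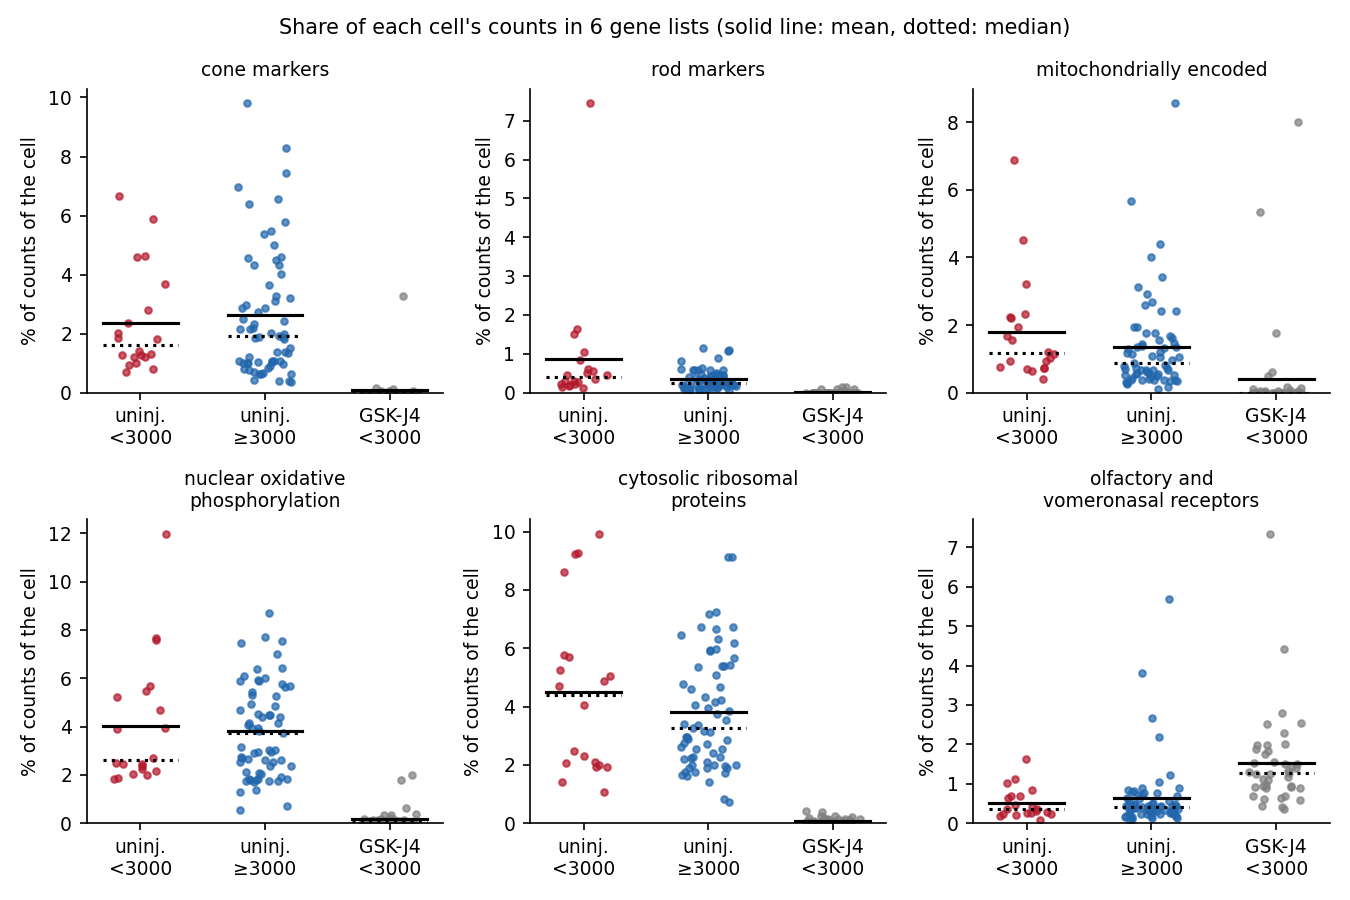
Share of each cell's counts (percent) in 6 gene lists, for the 20 low-count and 65 high-count uninjected cones and the 41 GSK-J4-treated cells under 3000 counts; each point is a cell, the solid line is the mean and the dotted line the median. Low- and high-count cones overlap in every list, the cell of well D05 stands apart at 7.44% rod markers, and most GSK-J4-treated cells lie near 0 in all but the receptor list.

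The low-count cones stood apart from GSK-J4-treated cells of similar depth. The 41 GSK-J4-treated cells under 3000 counts had a median total of 1226, near the 1412 of the low-count cones. Cone markers took a mean of 0.0909% of their counts (median 0, highest cell 3.27%) against 2.37% in low-count cones, so the treated mean rested largely on 1 cell. In 35 of the 41 there was no cone marker count, whereas no low-count cone had fewer than 5 markers. *Opn1mw* and *Pde6h*, genes of steady single counts, were found in all 20 low-count cones and in 0 and 3 of the 41. At 2 or more counts of a marker, the low-count cones had a median of 4 markers (1 to 8). This number was not computed for the GSK-J4-treated cells. Nuclear oxidative phosphorylation genes took 0.177% against 4.03%, cytosolic ribosomal protein genes 0.0796% against 4.48%, mitochondrially encoded genes 0.412% against 1.79% and glycolysis genes 0.0262% against 0.781%. *Tmsb10*, *Gngt2* and *Opn1sw* had 0 counts in these 41 cells. The 10 genes listed for the GSK-J4-treated cells (*Mgmt*, *Kif23*, *Hcar2* and others) took 0.973% of their counts, had 0 among the 33254 counts of the low-count cones, which allows up to 0.00902%, and took 0.0108% in high-count cones. That list was chosen on these cells and is not independent evidence of its direction. Olfactory and vomeronasal receptor genes, counted as a measure of background because retinal cones are not known for them, took 0.511% (0.0709 to 1.63%) in low-count cones, 0.632% in high-count cones and 1.54% in the GSK-J4-treated cells. Of 5 receptor genes tested, 1 was higher and 1 lower in low-count than in high-count cones, beside 23.1% and 12.8% of all tested genes, with a median log2 difference of -0.72. Expected genes per cell at 861 counts had means of 413 in low-count cones and 437 in the 26 GSK-J4-treated cells that reached this depth. Plate and treatment cannot be told apart in this comparison.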

How the data were processed

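The authors sorted single GFP-positive cones into 96-well plates, and assigned reads to wells by barcode. Of the well names, 57 occur on both plates, which are separate. Reads were aligned with the CLC Genomics Workbench v.20, PCR duplicates were removed by an 8-nt UMI and mapping position, and genes were counted with featureCounts on Gencode M17. The build is written as a human number (GRCh38) for Mus musculus, so coordinates here are those of GENCODE M21 on GRCm38. The values the authors deposited are counts, as whole numbers for each gene in each cell with no normalization, and no batch correction was applied here.

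All 85 uninjected cells and 17774 genes were used. Counts were scaled to 10000 per cell and averaged over cells. The log2 difference used a pseudocount of 1 per 10000 for genes with a mean of at least 2, and 2-fold was the limit for a call. Detection at 861 counts was computed exactly from the hypergeometric distribution. With 1 library per condition no test was run and no P-value is given. Intervals are 95% intervals and cover counting error only. Depth was 861 to 98441 counts per cell, so in the smallest cell 1 count is 11.6 per 10000.

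The named genes were the 10 highest and 10 lowest differences among genes expected in at least 20% of cells of a group at 861 counts, the 10 most abundant in low-count cones, and list members with a mean of at least 2. Rarer markers were named beside their lists. The members and lists were chosen with earlier results of these data known, and the genes of steady single counts after the values were seen. Alternatives were the limit, the filter of the methods, plate sides, summed counts, medians, minimum, pseudocount, size factors and thinning. The calculation was tested on simulated data. Python 3.11.15, numpy 2.4.6, pandas 2.3.3 and scipy 1.17.1 were used. The results of some single genes are left out.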

Additional observations from a re-analysis of the deposited data

How the results depend on the processing

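The numbers of higher and lower genes (178 and 99) stayed within 1.5 times under limits of 2000 and 5000 counts, the filter of the methods, either plate side, summed counts, a pseudocount of 0.1, thinning and without the genes of steady single counts. They were 62 and 38 with a minimum mean of 5, 471 and 353 with no minimum, 98 and 220 with median-ratio size factors, and 25 and 61 without the highest cell of each group, a setting chosen after seeing the data that also left fewer genes to test (451). The remaining values are log2 ratios of low over high. The cone share (-0.15) was -0.30 in plate columns 1 to 6, 0.033 in columns 7 to 12, -0.83 with size factors, -0.0028 without steady single counts and -0.29 without the highest cell. The rod share (1.35) was 1.55 and 0.92 at limits of 2000 and 5000, 0.88 in columns 7 to 12, 1.16 for summed counts, 0.65 for medians, 0.48 with size factors and 0.62 without the highest cell. The mitochondrial share (0.39) was 0.53 and 0.75 at the limits, 0.20 and 0.60 on the plate sides, -0.16 with size factors, 0.21 without steady single counts and 0.16 without the highest cell. The nuclear oxidative phosphorylation share (0.08) was 0.16 and -0.048 on the plate sides, 0.21 for summed counts, -0.53 for medians, -0.47 with size factors and -0.077 without the highest cell. The ribosomal protein share (0.24) was 0.16 and 0.11 at the limits, 0.15 with the filter, 0.46 and -0.18 on the plate sides, 0.38 for summed counts, 0.43 for medians, -0.29 with size factors and 0.14 without the highest cell. The receptor share (-0.31) was 0.23 at 5000 and -0.97 with size factors. Genes per cell at one depth (-0.06) and the share of low-count cells on each plate side moved less than their limits. The share of the genes listed for GSK-J4-treated cells is a bound and could not be given at 2000 counts, on either plate side or as a median. Of 59 named genes beyond 2-fold, 32 stayed so without the highest cells, 39 in columns 1 to 6 and 44 in columns 7 to 12. Signs turned without the highest cells for *Mrpl12* (-0.93), *Mrps27* (-0.072) and *Prph2* (-0.0030), in columns 1 to 6 for *Mrps25* (-0.18), *Mrps27* (-0.62) and *Prph2* (-0.44), and in columns 7 to 12 for *Clu* (-1.82), *Mrpl16* (-0.29), *Rpl10a* (-0.28), *Rpl4* (-0.058), *Rps15* (-1.02), *Rps7* (-0.066) and *Zfp790* (-1.62). The causes were not tested. Totals of 861 to 2970 counts limit what can be seen in a low-count cone, where a gene under about 1 count in the total is missed. No paired analysis was possible because each condition had 1 library and the result comes from no test.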
